A study of Homo sapiens with 5 samples.

Results

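In RNA-seq of the cell line TOV21G, derived from an ovarian clear cell carcinoma and mutated in ARID1A, 8 genes of the PI3K and AKT pathway were examined. They are PIK3IP1, an inhibitor of the pathway, the catalytic subunit genes PIK3CA and PIK3CB, the regulatory subunit genes PIK3R1 and PIK3R3, the kinase genes AKT1 and AKT2, and the lipid phosphatase gene INPP4B. The 8 were chosen by name for their place in the pathway, were found by their Ensembl identifiers among 30476 genes in the count table, and all had enough counts to be tested in every comparison. The study asked how ARID1A-mutated cells become resistant to EZH2 inhibitors (EIR cells). It profiled 1 library of parental cells and 4 libraries of EIR cells. The EIR cells were raised from TOV21G by exposure to GSK126, an inhibitor of the histone methyltransferase EZH2, in steps of 5, 10, 15 and 20 uM, after which clones were picked. Each of clones 3 and 4 gave 1 untreated and 1 GSK126-treated library, and the parental cells gave 1 untreated library. All cells share the ARID1A mutation of the line, the EIR cells stand for 2 picked clones only, and the labels give no dose or duration of GSK126 for the treated cultures.

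Class I PI3K is a dimer of a p110 catalytic subunit and a regulatory subunit. Activated by receptors and their adaptors, it phosphorylates a membrane lipid, PIP2, to PIP3, which recruits AKT to the membrane, where AKT is activated and in turn holds FOXO transcription factors out of the nucleus and raises mTORC1 signalling. Lipid phosphatases, INPP4B among them, remove phosphates again, and PIK3IP1, a transmembrane protein, binds p110 and lowers its activity. Mutations of PIK3CA are common in ovarian clear cell carcinoma, and PIK3IP1 is known as a gene that ARID1A and EZH2 regulate in opposite directions in this cancer.

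In GRCh37 (hg19), PIK3IP1 (ENSG00000100100) lies on chr22:31677580-31688520 and INPP4B (ENSG00000109452) on chr4:142944313-143768585, both on the minus strand. PIK3CA (ENSG00000121879) lies on the plus strand of chr3:178865902-178957881 and PIK3CB (ENSG00000051382) on the minus strand of chr3:138371540-138553770. PIK3R1 (ENSG00000145675) is on the plus strand of chr5:67511568-67597649 and PIK3R3 (ENSG00000117461) on the minus strand of chr1:46505812-46598708. AKT1 (ENSG00000142208) is on chr14:105235686-105262088 and AKT2 (ENSG00000105221) on chr19:40736224-40791443, both on the minus strand. FOXO factors stand at the end of this pathway, so the promoters of the 8 genes were searched for the forkhead core TGTTTAC on both strands (GTAAACA on the other). Promoter windows came from RefSeq on GRCh38.p14 and held 250 bases before and 50 after a transcription start. All 8 symbols were matched, with 25 windows, and 2 windows held the core, against 3.42% of all 35116 windows. The 2 windows are shown without their last bases, up to 30 bases after the start, with the match in capitals. The PIK3IP1 window reads the minus strand of chr22:31292459-31292738, and its match begins 17 bases after the start. The PIK3CA window reads the plus strand of chr3:179148107-179148386, and its match begins 149 bases before the start. A match of letters is not a measured binding site.
PIK3IP1: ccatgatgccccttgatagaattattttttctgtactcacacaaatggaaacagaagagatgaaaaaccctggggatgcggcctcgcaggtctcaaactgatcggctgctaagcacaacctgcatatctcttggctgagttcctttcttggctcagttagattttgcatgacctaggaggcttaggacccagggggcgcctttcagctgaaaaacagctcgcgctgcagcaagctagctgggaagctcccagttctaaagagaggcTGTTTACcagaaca
PIK3CA: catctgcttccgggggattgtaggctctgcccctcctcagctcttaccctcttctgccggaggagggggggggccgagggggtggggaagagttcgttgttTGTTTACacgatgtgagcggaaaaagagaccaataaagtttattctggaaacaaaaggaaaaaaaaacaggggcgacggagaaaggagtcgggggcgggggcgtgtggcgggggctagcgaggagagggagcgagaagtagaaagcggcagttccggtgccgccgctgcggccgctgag

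Total counts ranged from 25479238 to 30764963 per library. The line's markers were read in normalized counts, that is counts divided by a size factor per library. PAX8 stood at 3083 to 4523 and KRT18 at 11981 or more in all 5 libraries, whereas NAPSA stood at only 2.01 to 49.4. EPCAM was at 394 to 492 in the parental and clone 3 libraries and at 0 and 1.06 in the clone 4 libraries, so clone 4 lacked this epithelial marker. WT1, like ESR1 a marker of serous ovarian carcinoma, was at 38.3 in parental cells, 169 and 168 in clone 3, and 0 and 2.12 in clone 4. MUC1 ranged from 3.05 to 70.2, KRT8 from 4419 to 8080.1 and ESR1 from 0 to 1.02. The part of these marker differences in the results was not tested. Markers of other cells were low, with PTPRC of leukocytes at 2.01 to 14.8, CDH5 of endothelium at 4.07 to 9.26 and CD14 of monocytes at 0 to 27.2. The ratio of EIR to parental counts moved with the GC content of transcripts. Its median was 0.51 on the log2 scale over 1324 expressed genes under 40% GC and -0.49 over 1460 genes above 60% GC. This touches the 8 genes unequally, since AKT1 and AKT2 have transcripts of 60.7% and 59.3% GC and PIK3CA, PIK3CB and PIK3R1 of 36.7%, 39.9% and 39.97%. Values after a GC correction stand beside the calls in EIR against parental cells, and the part of GC content in them was not tested further. Of the genes that did not pass, PIK3IP1 came to 0.02, INPP4B to -0.05, PIK3CB to 0.27 and PIK3R3 to 0.11 on the log2 scale after it.

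In EIR cells against parental cells, PIK3R1 rose 2.34-fold, AKT1 and AKT2 fell, and the other 5 genes did not pass the test. PIK3IP1, for which the comparison asks whether the inhibitor's transcript is held low or released in resistant cells, lay on both sides of the parental level. Thus 3 of 8 genes passed an adjusted p of 0.05 in DESeq2, against 25.5% of all genes tested. By direction, 1 rose (12.4% of all genes did) and 2 fell (13.2% did). At 3 of 8, the genes passed about as often as genes at large. All 4 EIR libraries stood above the parental library for 4 genes (33.4% of all genes did so) and all below it for 2 genes (36.6% did so). With 1 parental library, the spread in these tests came from the EIR libraries alone. In bulk RNA, fewer cells that express a gene and less RNA per cell cannot be told apart.

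**Figure D1:**
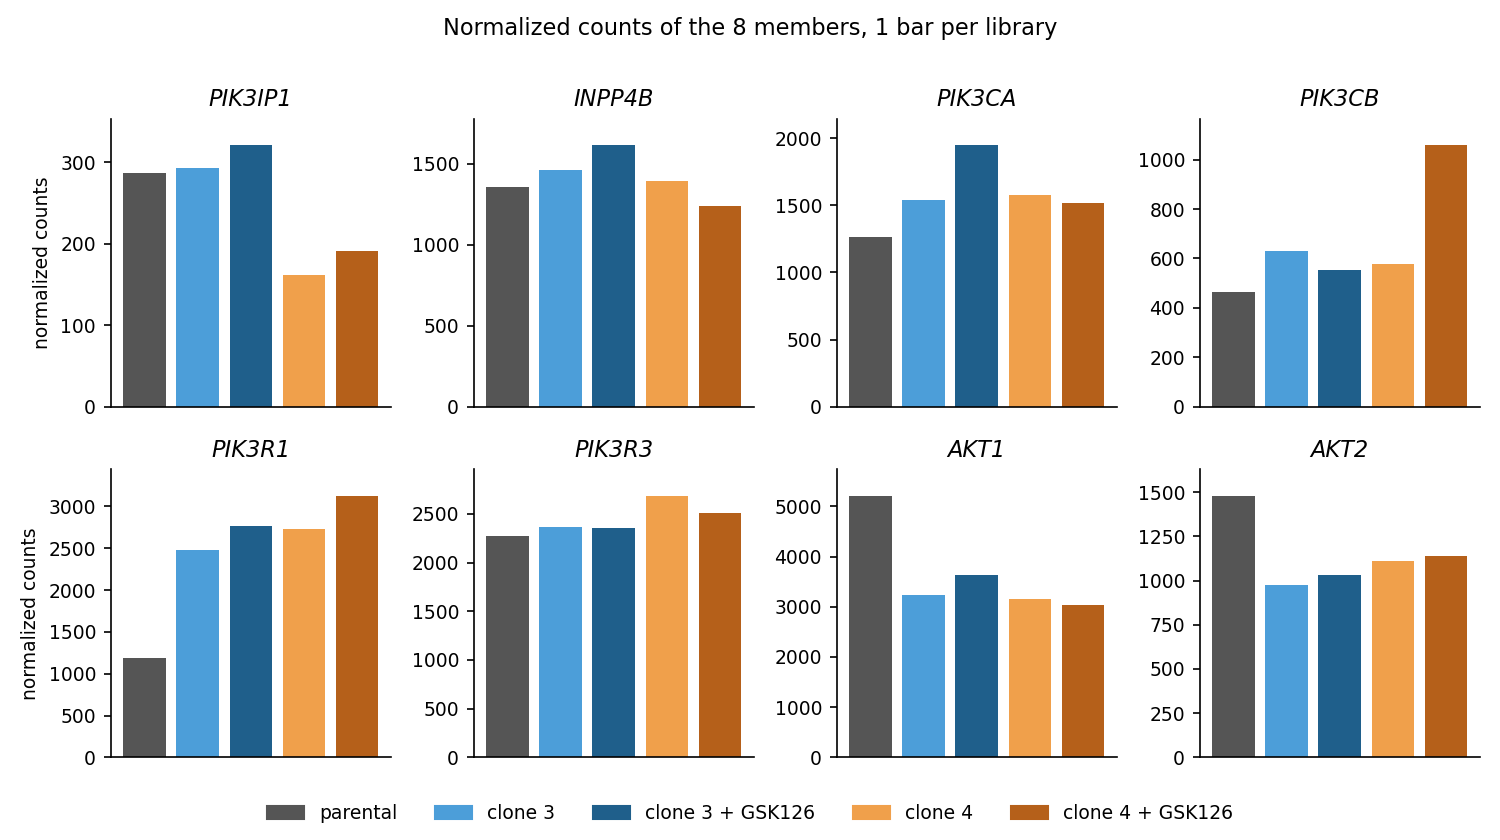
Normalized counts (y axis, starting at 0) of the 8 genes, with 1 bar for each of the 5 libraries. PIK3R1 was higher in each EIR library than in parental cells, AKT1 and AKT2 lower, and PIK3IP1 was lower in both clone 4 libraries only.

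PIK3IP1 had 287 normalized counts in parental cells. In clone 3 it had 293 untreated and 321 treated, and in clone 4 it had 162 untreated and 191 treated. The parental library thus lay close to clone 3 and above both libraries of clone 4. Over the 4 EIR libraries the mean was 242 ± 77.1 (SD, n = 4), and the log2 fold change against parental was -0.25 with an SE of 0.47. Its 95% interval ran from -1.18 to 0.68, and the adjusted p was 0.7536 (DESeq2). No common shift of PIK3IP1 in EIR cells was detectable within this wide interval. Scaled by transcript length as TPM, its level was 9.48 in parental cells and 9.11 ± 2.64 in EIR cells (SD, n = 4).

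INPP4B, which removes the 4-phosphate from PI(3,4)P2 and is known as a brake on AKT, had 1359.7 normalized counts in parental cells. Its EIR libraries had 1464 and 1618 in clone 3 (untreated and treated) and 1392 and 1241 in clone 4. The parental level lay inside this range. The log2 fold change was 0.07 with a 95% interval from -0.36 to 0.50 (DESeq2 adjusted p = 0.8521).

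Of the catalytic subunits, PIK3CA, which encodes p110alpha, had 1266 normalized counts in parental cells. It had 1543 and 1951 in untreated and treated clone 3, and 1577 and 1519 in untreated and treated clone 4. Each EIR library was above the parental one, yet the log2 fold change of 0.38 (SE 0.23) had an interval from -0.07 to 0.83 and did not pass the test (DESeq2 adjusted p = 0.2292). After GC correction it was -0.23, so not even its direction held. PIK3CB, which encodes p110beta, had 464 in parental cells, 629 and 554 in clone 3, and 578 and 1060.1 in clone 4. The GSK126-treated clone 4 library stood apart from the other EIR libraries, which lay within 554 to 629. The log2 fold change was 0.60 with an interval from -0.24 to 1.45 (DESeq2 adjusted p = 0.3251).

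Of the regulatory subunits, PIK3R1, which encodes p85alpha, the most widely used partner of p110, changed most among the 8 genes. It had 1188 normalized counts in parental cells, 2479 and 2770.1 in untreated and treated clone 3, and 2731 and 3129 in untreated and treated clone 4. The lowest EIR library was thus well above the parental one, and the EIR libraries lay close together at 2778 ± 268 (SD, n = 4). DESeq2 put the log2 fold change at 1.22 with an SE of 0.20 (adjusted p = 7.062e-08), and it passed in all 12 alternative fits, at log2 fold changes of 0.88 to 1.30 and adjusted p from 3.655e-09 to 0.0155, and the lowest of these was the GC-corrected one. PIK3R3, which encodes p55gamma, had 2270.2 in parental cells, 2363 and 2359 in clone 3, and 2689 and 2512 in clone 4. These values differed little, with a log2 fold change of 0.13 and an interval from -0.20 to 0.46 (DESeq2 adjusted p = 0.636).

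AKT1, the most abundant AKT transcript, had 5215 normalized counts in parental cells, 3239 and 3624 in untreated and treated clone 3, and 3159 and 3042 in untreated and treated clone 4. All EIR libraries were below the parental one, and the log2 fold change was -0.68 with an SE of 0.18 (DESeq2 adjusted p = 0.0014). It passed in 10 of 12 alternatives. It did not pass after GC correction, where it was -0.25 (adjusted p = 0.2718), nor with the libraries of each clone summed, where it was -0.67 (adjusted p = 0.1031). AKT2 had 1481 in parental cells, 973 and 1031 in clone 3, and 1108 and 1139 in clone 4, again all below parental. At -0.48 on the log2 scale, with an SE of 0.19, it lay close to the threshold (DESeq2 adjusted p = 0.0439) and passed in 3 of 12 alternatives. It was -0.08 after GC correction (adjusted p = 0.8368), and its adjusted p was 0.1374 in edgeR. Without untreated clone 3, untreated clone 4 or treated clone 3 its adjusted p was 0.1785, 0.1409 or 0.188.

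Set against parental cells separately, both clones carried more PIK3R1 and less AKT1. AKT2 passed only in clone 3 and PIK3CB only in clone 4, but the difference between clones did not pass for either (log2 0.16 and 0.40, DESeq2 adjusted p = 0.8294 and 0.5264). In clone 3 against parental cells, 3 of 8 genes passed (29.2% of all genes did). PIK3R1 rose by 1.14 on the log2 scale (adjusted p = 5.235e-08), AKT1 fell by 0.60 (adjusted p = 0.0028) and AKT2 fell by 0.56 (adjusted p = 0.0237), all in DESeq2. In clone 4 against parental cells, 3 of 8 genes passed as well (32.9% of all genes did). PIK3R1 rose by 1.30 (adjusted p = 2.737e-10), PIK3CB rose by 0.82 (adjusted p = 0.0391) and AKT1 fell by 0.75 (adjusted p = 1.169e-04). Both comparisons share the parental library, so they are not independent of each other. Their spread came from the untreated and treated library of each clone. The adjusted p thus measure neither variation between clones nor between repeat cultures of parental cells. The PIK3CB value rested on 1 library: without GSK126-treated clone 4 it was 0.32 (adjusted p = 0.5405), and it did not pass in edgeR (adjusted p = 0.065). Nor did it pass without untreated or treated clone 3, at 0.82 and 0.81 (adjusted p = 0.1382 and 0.1354). Without its untreated or its treated library, clone 3 lost the calls of AKT1 (adjusted p = 0.2241 and 0.0789) and AKT2 (adjusted p = 0.3393 and 0.2439). After GC correction, PIK3R1 alone of the 8 genes passed in each clone.

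**Figure D2:**
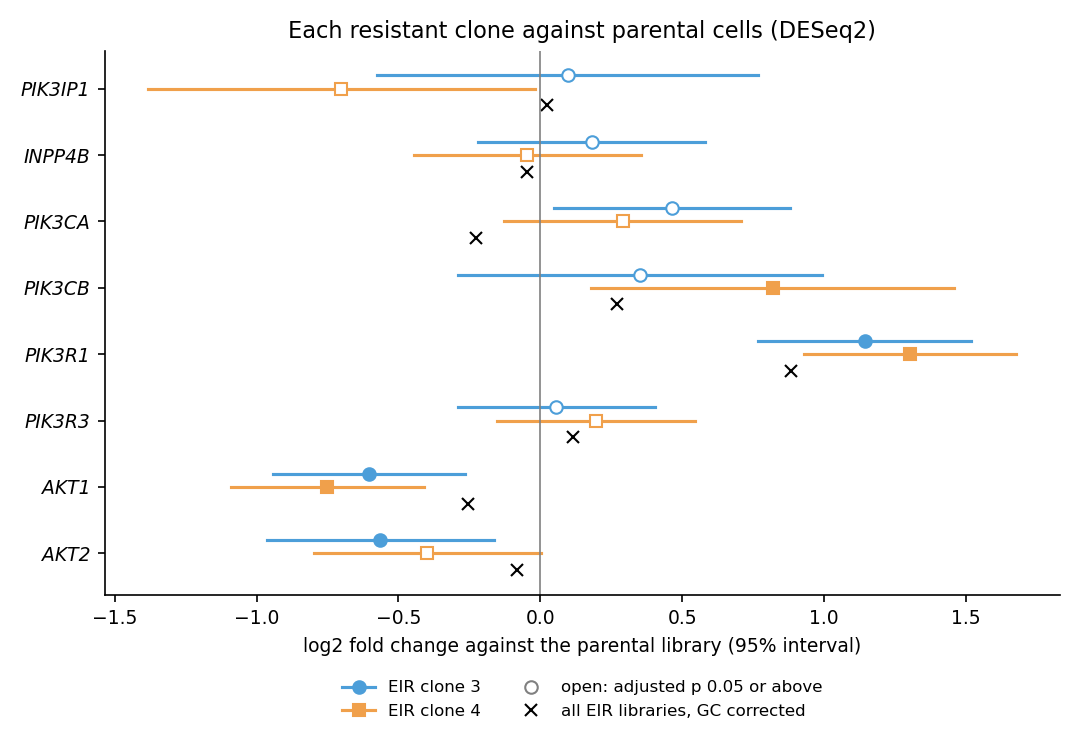
Log2 fold change of each clone against the parental library (x axis, DESeq2) with 95% intervals, for clone 3 (circles) and clone 4 (squares), filled where the adjusted p was under 0.05. Crosses give all 4 EIR libraries after GC correction, where PIK3R1 stayed at 0.88 while AKT1 came to -0.25 and PIK3CA to -0.23.

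For PIK3IP1, clone 3 was at 0.10 against parental (95% interval -0.58 to 0.77) and clone 4 at -0.70 (-1.38 to -0.02), with DESeq2 adjusted p of 0.8904 and 0.1095. The clone 4 value passed in 1 of 11 alternatives, edgeR, at -0.72 (adjusted p = 0.0334). The difference between the clones was tested directly in the 4 EIR libraries, with treatment as covariate. Clone 4 had a mean of 177 normalized counts and clone 3 of 307. The log2 difference was -0.81 with an interval from -1.45 to -0.17. Its unadjusted p was 0.0137 and its adjusted p 0.1103 in DESeq2, while edgeR gave an adjusted p of 0.031 and DESeq2 without the treatment covariate 0.0225. None of the 8 genes passed this comparison in DESeq2 (9.81% of all genes did). PIK3IP1 alone of the 8 had an unadjusted p under 0.05, as had 3270 genes of the whole table. It was also the only 1 of the 8 that edgeR called, and the edgeR share over all genes is not given here. The smallest log2 differences between clones were 0.13 for PIK3R3 (-0.22 to 0.48), 0.15 for PIK3R1 (-0.19 to 0.49) and -0.15 for AKT1 (-0.49 to 0.19). PIK3CB differed by 0.40 (-0.14 to 0.95), and INPP4B by -0.23 (-0.62 to 0.16). The clones differ elsewhere too, as EPCAM shows, and the reason for the lower PIK3IP1 counts in clone 4 was not tested.

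GSK126 treatment of EIR cells gave no detectable change in any of the 8 genes. None passed in DESeq2, where 0.00335% of all genes did (1 of 29847). None had an unadjusted p under 0.05, as 117 genes of the whole table had, and edgeR called none of the 8. The comparison addresses whether the drug, whose target EZH2 is a repressor, moves these genes in resistant cells. Without a treated parental library, it cannot show whether a response was kept or lost. PIK3IP1 changed by 0.13 on the log2 scale in clone 3 and by 0.24 in clone 4, higher with drug in both. The tested value was 0.16 with an interval from -0.79 to 1.11, which leaves room for a change of more than 2-fold. This fit did not pair the libraries by clone, so differences between the clones add to the width of its intervals. PIK3R1 also lay higher with drug in both clones, by 0.16 and 0.20, and its interval was narrower, from -0.23 to 0.57. PIK3CB went opposite ways, by -0.18 in clone 3 and 0.87 in clone 4. PIK3CA moved by 0.34 and -0.05, AKT1 by 0.16 and -0.05, INPP4B by 0.14 and -0.17, AKT2 by 0.08 and 0.04, and PIK3R3 by -0.0022 and -0.098. All adjusted p were 0.9999. With the clone number as replicate block, still none of the 8 genes passed.

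Because subunits of a family can stand in for each other, their levels were compared per length, in TPM computed from the canonical transcript. AKT1 was the higher of the AKT1 and AKT2 pair throughout, at 141 TPM in parental cells and 101 ± 5.61 in EIR cells (SD, n = 4). AKT2 was at 22.5 TPM in parental cells and 18.6 ± 2.25 in EIR cells, with clone 3 at 16.5 and 17.4 and clone 4 at 19.0 and 21.6.

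**Figure D3:**
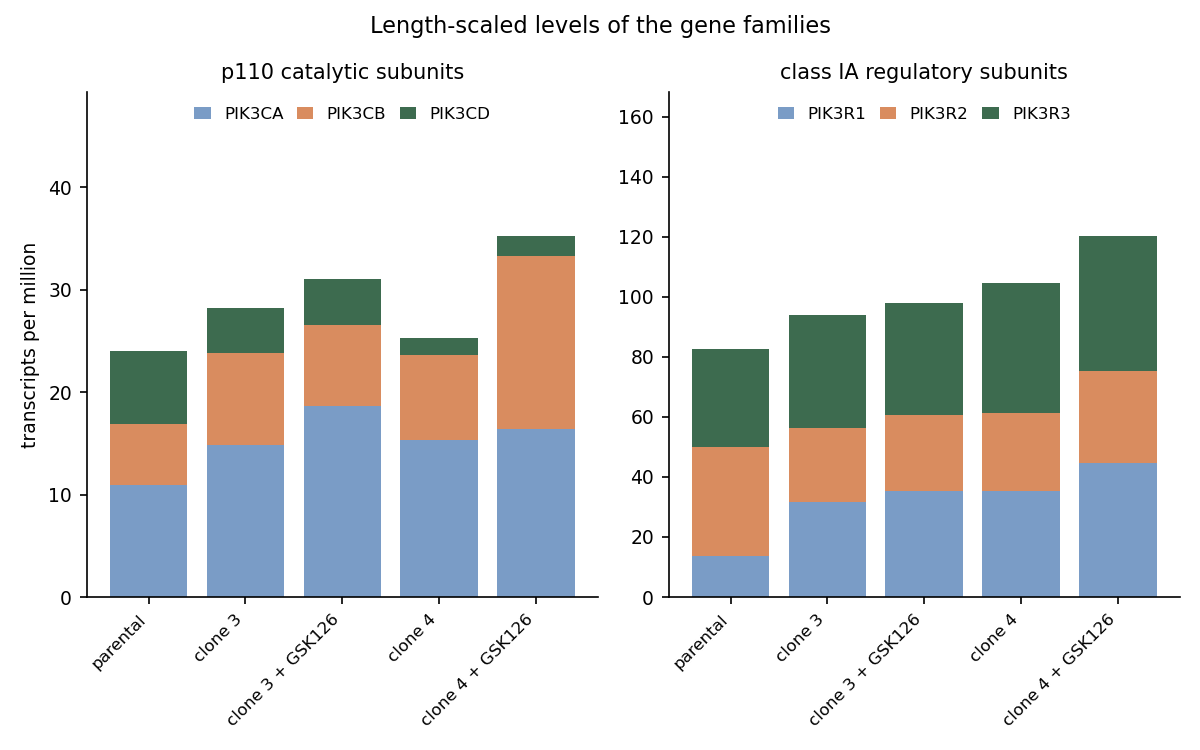
TPM (y axis, starting at 0) of the p110 catalytic and class IA regulatory transcripts, stacked within each of the 5 libraries. The PIK3R1 segment grows from 13.6 TPM in parental cells to between 31.7 and 44.7 TPM in EIR libraries, and the PIK3CD segment is smaller in each EIR library than in parental cells.

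Among p110 transcripts, PIK3CA was the first in parental cells at 10.9 TPM, followed by PIK3CD (p110delta, best known from leukocytes) at 7.14 and PIK3CB at 5.93. In EIR cells PIK3CA was at 16.3 ± 1.70 and PIK3CB at 10.5 ± 4.28, while PIK3CD was at 3.13 ± 1.55. The share of PIK3CD went from 29.8% to 10.6% ± 5.28, and that of PIK3CB reached 48.0% in GSK126-treated clone 4 alone. Among regulatory transcripts, PIK3R1 had the smallest share in parental cells, 16.5%, behind PIK3R2 at 44.2% and PIK3R3 at 39.3%. In EIR cells PIK3R1 held 35.2% ± 1.74, PIK3R2 25.6% ± 0.491 and PIK3R3 39.2% ± 1.85, and the share of PIK3R1 was above that of PIK3R2 in every EIR library and below it in parental cells. TPM were not GC corrected, and the part of GC content in these shares was not tested. PIK3R2, which encodes p85beta, fell from 1814 to 1151 ± 53.8 normalized counts (-0.66 on the log2 scale, SE 0.17, DESeq2 adjusted p = 7.772e-04). This was -0.18 after GC correction, where it did not pass (adjusted p = 0.5456), and it passed in 9 of 12 alternatives. Shares within a library are descriptions and carry no test.

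The wider pathway was read from 8 lists with 61 genes, of which 60 were in the table and 58 could be tested. In EIR against parental cells 6 were higher, 10 lower and 42 did not pass, where 25.5% of all genes passed, 12.4% higher and 13.2% lower. The share that passed was thus close to that of genes at large, and the counts of single lists below read against the same background. The median log2 fold change was -0.22, beside 0.00 over all genes tested. After GC correction 5 were higher and 6 lower, and the median was -0.01. GC-corrected counts, here and for the lists below, stand without the share of all genes called after that correction. No p110 gene passed of 3 tested (1 at an unadjusted p under 0.05, as were 5957 genes of the whole table, none in edgeR). PIK3CD was at -1.37 (DESeq2 adjusted p = 0.1265), and against parental cells by clone it was lower in each, at -0.83 in clone 3 (adjusted p = 0.0477) and -2.24 in clone 4 (adjusted p = 2.429e-09). After GC correction no p110 gene passed in clone 3 and 1 was lower in clone 4. In EIR cells as 1 group, none of 10 inhibitor and phosphatase genes passed (1 at an unadjusted p under 0.05, none in edgeR). This list holds PIK3IP1 and INPP4B, and its median was -0.40 and, after GC correction, -0.04. By clone, none passed in clone 4 and 2 were lower in clone 3, where 29.2% of all genes passed. These were PHLPP1 at -1.18 (DESeq2 adjusted p = 0.0031) and INPP5D at -3.17 (adjusted p = 0.0295). INPP5D had only 34.2 normalized counts in parental cells, and both are named after their values were seen. After GC correction 1 gene of this list was higher and 1 lower in clone 3. Of 4 regulatory subunits, PIK3R1 rose and PIK3R2 fell.

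Of 8 genes for AKT and the kinases that activate it, RICTOR was higher and AKT1 and AKT2 lower. RICTOR, the defining subunit of mTORC2, rose from 875 to 1698 ± 410.1 normalized counts (log2 fold change 0.96, SE 0.34, DESeq2 adjusted p = 0.0216) and did not pass in edgeR, after GC correction (0.50, adjusted p = 0.3875) or with treatment as covariate. Of 13 AKT substrates and genes of the mTORC1 branch, 4 fell and none rose, and after GC correction 2 were higher and 2 lower. FOXO4 fell from 785 to 319.7 ± 35.6 (log2 fold change -1.30, adjusted p = 5.590e-06) and FOXO3 from 1871 to 982 ± 114 (-0.93, adjusted p = 4.978e-04), both in all 12 alternatives. EIF4EBP1, an mTORC1 substrate that restrains translation, fell from 2074 to 1175 ± 86.8 (-0.82, adjusted p = 1.622e-04). After GC correction it was -0.40 and did not pass (adjusted p = 0.1679). RPS6KB2, the second S6 kinase gene, fell by 0.71 (adjusted p = 0.0016), passed in 9 of 12 alternatives and not after GC correction (-0.26, adjusted p = 0.2588), and is named here after its value was seen.

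Of 13 transcripts known to be induced by FOXO factors, 2 rose, 2 fell and 9 did not pass, with a median of -0.25 on the log2 scale. After GC correction 1 was higher and 3 lower, and the median was -0.40. The 2 that fell without the correction encode receptors upstream of PI3K. ERBB3 went from 791 to 154 ± 72.8 normalized counts (log2 fold change -2.36, SE 0.61, DESeq2 adjusted p = 0.0011) and INSR, the insulin receptor gene, from 946 to 325 ± 42.2 (-1.54, SE 0.26, adjusted p = 1.923e-07), both in all 12 alternatives. GADD45A, a stress-response gene, rose from 429 to 789 ± 90.2 (0.88, SE 0.24, adjusted p = 0.0023), and the call did not hold in edgeR (0.87, adjusted p = 0.0618) or with clones summed (0.89, adjusted p = 0.0656). The death ligand gene TNFSF10 rose by 3.15 on the log2 scale (DESeq2 adjusted p = 0.0401), and is named after its value was seen. It had 7.05 normalized counts in parental cells, 111 and 96.9 in clone 3, and 18.3 and 24.3 in clone 4. Against parental cells clone 3 passed at 3.88 (adjusted p = 5.848e-05) and clone 4 did not at 1.60 (adjusted p = 0.1584), and the clones differed by -2.30 (adjusted p = 0.0033). In EIR cells as 1 group its call was lost in edgeR (3.12, adjusted p = 0.2306), after GC correction (3.09, adjusted p = 0.0587) and without untreated or treated clone 3 (adjusted p = 0.1334 and 0.1214), among others. Of 4 adaptor genes between receptors and PI3K, GAB2 fell from 2001 to 198 ± 61.8 (-3.34, SE 0.43, adjusted p = 6.498e-13). Of 4 genes of class II and III PI3K, PIK3C2A rose from 2198 to 5364 ± 392 (1.29, SE 0.18, adjusted p = 2.333e-11), as did PIK3C3, the autophagy lipid kinase gene, from 2257 to 4190.2 ± 828 (0.89, SE 0.30, adjusted p = 0.0147). GAB2 and PIK3C2A passed in all 12 alternatives, PIK3C3 in 9. PIK3C3 did not pass in edgeR (0.88, adjusted p = 0.1077), after GC correction (0.44, adjusted p = 0.3144) or with clones summed (0.90, adjusted p = 0.0522). By clone, 6 of 58 genes were higher and 18 lower in clone 3 (29.2% of all genes passed), and 8 higher and 11 lower in clone 4 (32.9% passed). After GC correction these counts were 6 and 14 in clone 3, and 10 and 8 in clone 4.

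**Figure D4:**
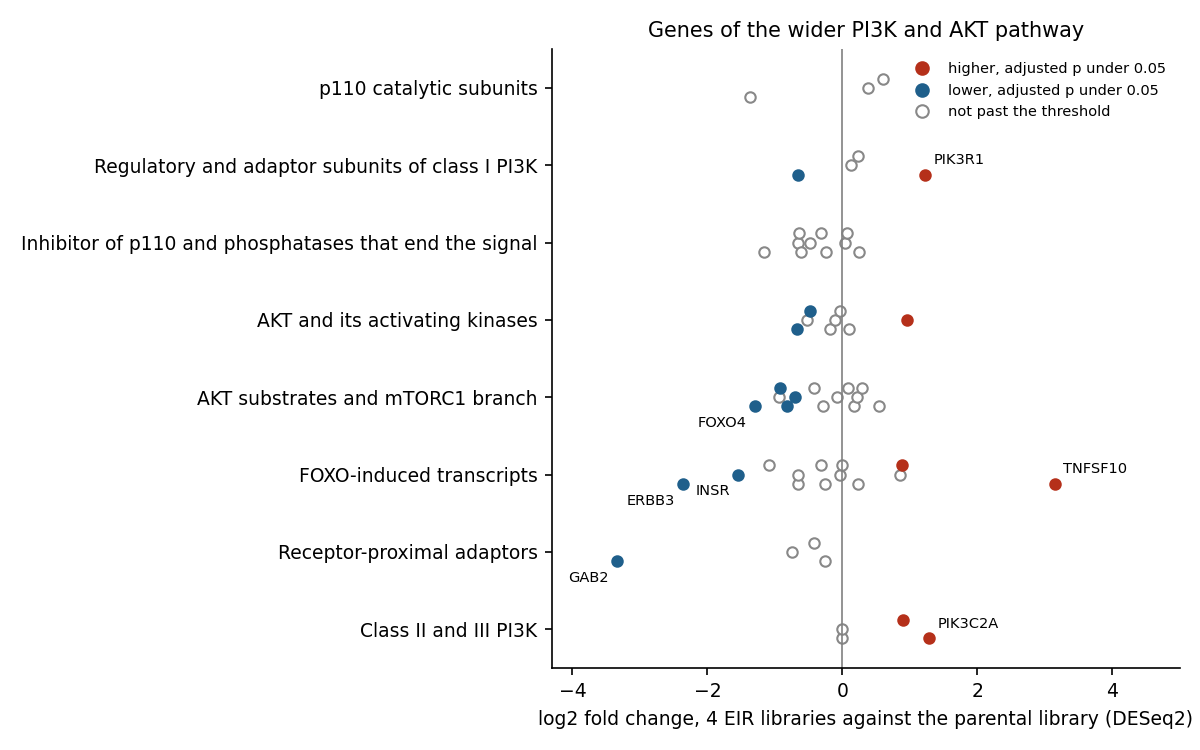
Log2 fold change of the 4 EIR libraries against the parental library (x axis, DESeq2) for the 58 tested genes of 8 pathway lists (rows), with 1 point per gene. TNFSF10 lies farthest to the right at 3.15 and GAB2 farthest to the left at -3.34, while every point of the inhibitor and phosphatase row is open.

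The genes whose profile over the 5 libraries lay nearest to that of PIK3IP1 were sought among 11564 expressed genes, by Euclidean distance between centred log2 normalized counts. The 4 nearest were NUPR1 (distance 0.0547), SLC9A7 (0.0688), KDM1B (0.0900) and RNF213 (0.121). KDM1B, for example, had 1162 normalized counts in parental cells, 1163 and 1213 in untreated and treated clone 3, and 661 and 772 in untreated and treated clone 4. Nearest to INPP4B were MRPL20 (0.0306), PRPS1 (0.0521), MEMO1 (0.0622), MRPS18B (0.0664) and ACCS (0.0677), all nearly level across the libraries. With 5 libraries such nearness is a description only.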

How the data were processed

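Total RNA of 5 TOV21G cultures was sequenced with a stranded kit, per the labels. The authors aligned reads to hg19 with bowtie2 and estimated counts per gene with RSEM on Ensembl annotation, whose release is not given in the sources used here. The deposited values are these expected counts, already whole and not normalized. RSEM divides shared reads, and use of strand in counting is not stated, so PIK3CA with KCNMB3 and PIK3R3 with a read-through transcript are uncertain where they overlap.

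Groups came from the labels. Symbols, positions and GC content (median over transcripts) came from GENCODE mapped to GRCh37, where 29203 of 30476 identifiers (95.8%) matched. TPM was computed from canonical transcript lengths (27915 genes with 90.8% of counts).

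All genes entered Wald tests, two-sided, in DESeq2 1.42.0 (R 4.3.3), which the study also used at a false discovery rate of 5%. Size factors were medians of ratios, and the threshold was a Benjamini-Hochberg adjusted p of 0.05. The parental library was set against all EIR libraries and against each clone (3 groups in 1 fit), and the 4 EIR libraries by clone (treatment as covariate) and by treatment. Intervals are 95% Wald intervals. Alternatives were edgeR 4.0.16 (quasi-likelihood), other scalings, filters at 10 counts, a GC correction (lowess span 0.3, pseudocount 0.5), summed clones, covariates and each library left out. Libraries of 1 clone share their cells and are not independent, so p-values measure only the spread between these samples. Same-numbered libraries come from 1 clone, and their deviations from the group means correlated at 0.862 over 11564 genes (mean of 100 normalized counts or more).

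The 8 genes, the pathway lists and the promoter search were chosen with earlier results of these data known. Named beside the 8 genes were list genes past the threshold in EIR against parental cells averaging 100 normalized counts or more, at most 3 per list by size of change, and the 5 nearest profiles of PIK3IP1 and INPP4B. Some genes that these rules take in are not reported here and were left out of the lists. Tests were tried on simulated counts.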

Additional observations from a re-analysis of the deposited data

Results flagged for a closer look

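PIK3CA in the 4 EIR libraries had its highest value, 1951 normalized counts, in GSK126-treated clone 3, apart from the other EIR libraries at 1519 to 1577. The gap made up 0.867 of the whole range. PIK3CB had its highest value, 1060.1 normalized counts, in GSK126-treated clone 4, apart from the others at 554 to 629, and its gap made up 0.853 of the range. Both lie above the limit of Dixon's test for 4 samples. Chance marks about 1 in 20 such groups of independent samples, but libraries of the same clone are not independent. The 8 genes were each looked at, and the share of all genes above the limit was not computed. The 2 values come from different libraries, and neither gene passed the test of GSK126-treated against untreated EIR cells.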

How the results depend on the processing

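Values of the 8 genes were recomputed 464 times. Of these 406 kept their direction and side of the threshold, 26 lost it, 7 gained it and 25 changed sign, none of the 25 being past the threshold in either fit. The single parental library and 2 clones limit every contrast with parental cells. The cause of the shifts was not tested.

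Genes called in EIR against parental cells numbered 4157, with 1746 in edgeR, 1914 with clones summed and 1998 with treatment as covariate (2838 to 4022 with a library left out). Of the 8 genes, those called went from 3 to 1 after GC correction and to 1 with clones summed. The number of all genes called after GC correction is not given here or below, so the drop cannot be set against genes at large. In clone 3 against parental the 4925 calls became 3273 with the covariate and 1983 to 5023 with a library left out, fewest without GSK126-treated (1983) and untreated clone 3 (2309), and of the 8 genes those called went from 3 to 1 after GC correction and to 1 to 3. In clone 4 against parental the 5368 calls became 3477 with the covariate and 3339 to 4623 with a library left out, and of the 8 genes those called went from 3 to 1 after GC correction. In clone 4 against clone 3 the 1738 calls became 831 to 2800 with a library left out (831 without treated and 875 without untreated clone 3, 2800 without untreated clone 4), and of the 8 genes those called went from 0 to 1 in edgeR, 1 without the covariate and 0 to 1 with a library left out (PIK3CB at 0.83, adjusted p = 0.0022 in DESeq2, without untreated clone 4, and PIK3IP1 at -0.93, adjusted p = 0.0383, without GSK126-treated clone 4). Those fits omitted the treatment covariate, which left no residual degrees of freedom, a choice made after seeing the data. For GSK126, the 1 call became 0 in edgeR, 4 with the replicate block, 7 with GC correction and the replicate block, and 1 to 25 with a library left out (25 without untreated clone 3). None of the 8 genes was called in any of these.

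Sign changes (log2) after GC correction were PIK3IP1 0.0237, PIK3CA -0.227 and INPP4B -0.0462 in EIR against parental, PIK3CA -0.145 in clone 3, PIK3CA -0.314 and AKT2 0.0321 in clone 4, and INPP4B 0.0291 for GSK126 (0.0232 with the replicate block). INPP4B in clone 4 against parental came to 0.0306 with total count scaling, 0.0180 with at least 10 counts in every library, and -0.138 to 0.0393 with a library left out. PIK3CB in clone 4 against clone 3 came to -0.0436 without GSK126-treated clone 4. For GSK126, total count scaling gave PIK3R3 0.0171 and INPP4B 0.0599, and at least 10 counts in every library gave INPP4B 0.000472. With a library left out, the GSK126 values spanned -0.276 to 0.664 for PIK3IP1, -0.0643 to 0.314 for PIK3CA, -0.1304 to 0.787 for PIK3CB, -0.146 to 0.0226 for PIK3R3, -0.0991 to 0.172 for AKT1, -0.0334 to 0.136 for AKT2 and -0.229 to 0.172 for INPP4B.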

Other observations

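In clone 4 against clone 3, 7 of the 58 tested list genes were higher and 3 lower (DESeq2, treatment as covariate), where 9.81% of all 17708 genes tested passed, 584 of them higher and 1154 lower. The genes in this paragraph are named after their values were seen. FOXO1, the FOXO gene that did not pass in EIR cells as 1 group, had 1270.1 normalized counts in parental cells, 336 and 402 in untreated and treated clone 3, and 778 and 1136 in untreated and treated clone 4. Between clones it differed by 1.35 on the log2 scale (SE 0.24, adjusted p = 5.553e-07). PDK4, which restrains entry of pyruvate into the citric acid cycle, followed the same order, with 25409 in parental cells, 11044 and 10607 in clone 3, and 22640.0 and 20498 in clone 4 (0.99, adjusted p = 1.459e-08). So did IRS1, an adaptor of the insulin receptor, with 1435 in parental cells, 567 and 568 in clone 3, and 1137 and 1139 in clone 4 (1.00, adjusted p = 1.100e-04). These 3 genes were lowest in both libraries of clone 3. Of the 13 FOXO-induced transcripts, 3 were higher in clone 4 than in clone 3 (IGF1R, IRS2 and PDK4). Another 2 were lower, TNFSF10 and ERBB3, the latter by -1.25 (DESeq2 adjusted p = 0.0207).

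IGF1R, the IGF1 receptor gene, had 193 normalized counts in parental cells, 114 and 142 in untreated and treated clone 3, and 357 and 786 in untreated and treated clone 4. It was higher in clone 4 than in clone 3 by 2.06 on the log2 scale (SE 0.32, DESeq2 adjusted p = 4.962e-09). PIK3R5, an adaptor subunit of p110gamma, was higher in clone 4 by 1.01 (adjusted p = 0.0011), and PIK3CD differed by -1.42, with 483 in parental cells, 268 and 276 in clone 3, and 97.7 and 107 in clone 4 (adjusted p = 0.002).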
